A study of Mus musculus with 30 samples.

Results

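The alpha-arrestin genes Txnip, Arrdc2, Arrdc3 and Arrdc4 were followed through a series on the response of mouse liver to insulin. They were taken by symbol from a table of 29117 genes. Each of the 4 had 1 row, so no measured value decided which row was used. The set was proposed with earlier results of the same libraries in view, and Txnip was in effect selected on its measured difference in FPKM between insulin and PBS, which already stood out there. The differences of Txnip and its levels in insulin are therefore given as a description with no test, and its relatives are tested. Its values across the PBS points are tested too, but PBS is a term of that difference, so this test is not independent of the choice. Liver of the left lobe came from C57BL/6J mice, an inbred laboratory strain, aged 10 weeks. All mice, controls included, had been fasted for 12 to 16 h. They then received an intraperitoneal injection of human insulin at 0.7 U/kg or of PBS, the saline vehicle. There were 3 libraries for each treatment at each of 5 sampling points spread over the hours after injection, 30 in all. The labels number the points without giving minutes, so points are named by number, and neither an order in time nor an uninjected baseline is assumed. The labels call the libraries biological triplicates.

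Alpha-arrestins are adaptor proteins with an arrestin fold. Several of them carry short proline-rich motifs that recruit ubiquitin ligases of the NEDD4 family to membrane proteins, which are then taken into the cell. Txnip, the thioredoxin-interacting protein, also binds thioredoxin, which the other members are not known to do, and it restrains glucose uptake. Its transcript is a textbook target of the glucose-sensing factors MondoA (gene Mlxip) and ChREBP (gene Mlxipl), which pair with Mlx and bind carbohydrate response elements. Arrdc4 is known as a second target of the same factors. Arrdc3 has been linked to body mass and to the insulin receptor, and Arrdc2 is the least studied of the set.

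The promoter windows of Txnip and Arrdc4 are shown because both genes are described as carbohydrate-responsive. Each window, taken from RefSeq on GRCm38.p6, runs from 250 bases before to 50 bases after the annotated start and reads 5′ to 3′ on the strand of the gene. Capitals mark motif matches on either strand.
Txnip, chr3:96557707-96558006, plus strand: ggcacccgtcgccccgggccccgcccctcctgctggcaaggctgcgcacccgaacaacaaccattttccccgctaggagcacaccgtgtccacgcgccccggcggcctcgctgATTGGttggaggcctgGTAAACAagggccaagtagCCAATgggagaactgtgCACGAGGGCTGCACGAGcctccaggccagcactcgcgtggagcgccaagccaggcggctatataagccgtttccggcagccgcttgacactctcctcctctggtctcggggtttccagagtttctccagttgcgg
Arrdc4, chr7:68749189-68749488, minus strand: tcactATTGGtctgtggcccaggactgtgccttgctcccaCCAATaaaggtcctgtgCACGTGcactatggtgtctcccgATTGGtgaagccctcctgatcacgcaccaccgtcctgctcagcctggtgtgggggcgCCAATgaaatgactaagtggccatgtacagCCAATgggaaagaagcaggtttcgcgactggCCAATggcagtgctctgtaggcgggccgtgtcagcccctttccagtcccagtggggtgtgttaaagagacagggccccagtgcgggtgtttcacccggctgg
The capitals of Txnip are, in order, a CCAAT box on the reverse strand, a forkhead motif (TGTTTAC, also on the reverse strand), a CCAAT box on the forward strand and the run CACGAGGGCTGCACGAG. That run spans bases -85 to -69 from the start and matches a pair of half-sites in the pattern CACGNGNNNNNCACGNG, written after the known carbohydrate response element of Txnip. Of 32851 mouse promoter windows of this length, 0.0487% held that pattern, 7.15% an E-box (CACGTG), 37.4% a CCAAT box, 3.65% the forkhead motif and 1.79% a cAMP response element (TGACGTCA). In Arrdc4 the capitals are 6 CCAAT boxes and 1 E-box at bases -193 to -188. The Arrdc2 window held 3 CCAAT boxes. Of the 3 windows of Arrdc3, 2 that overlap held the same CCAAT box and the third held no match. None of the motifs overlapped another motif. A match is a run of letters and not a bound site, and these letters were chosen knowing the Txnip element.

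**Figure D1:**
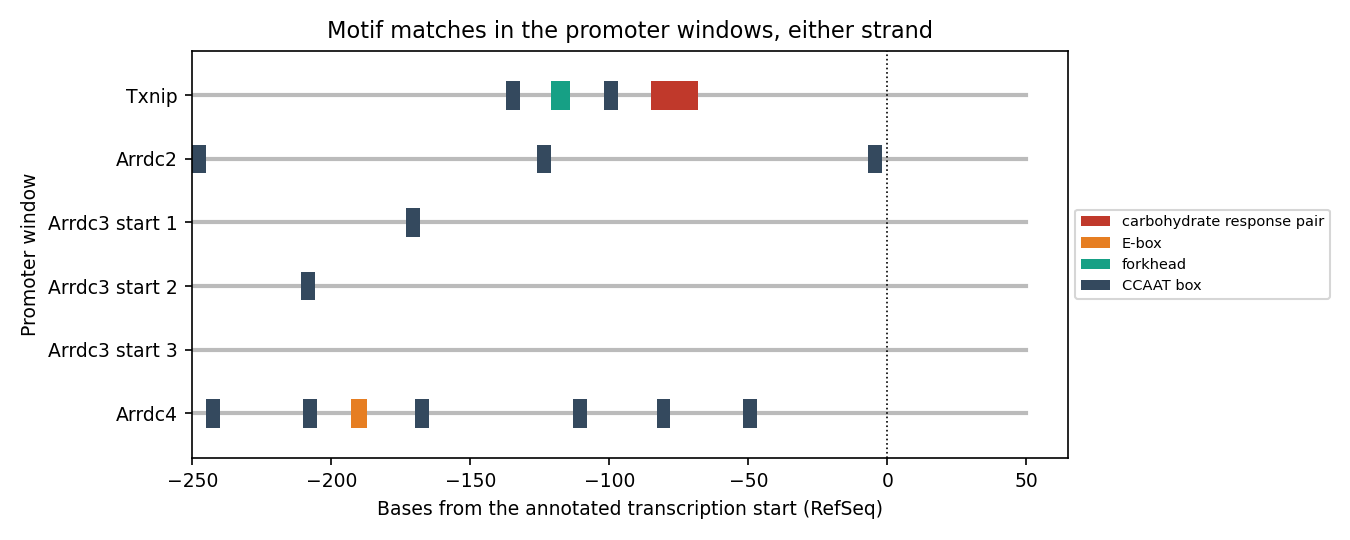
Position of motif matches in bases from the RefSeq start (x axis) in the promoter windows of the 4 genes, with 3 annotated starts for Arrdc3 (y axis). Each coloured block is a match on either strand, drawn at least 3 bases wide; the carbohydrate response pair is in the Txnip window, at bases -85 to -69, and the E-box is in that of Arrdc4.

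Levels are in FPKM, a fragment count divided by transcript length and by library size, so levels of different genes can be set side by side. Steps between low values gave whole reads, within 0.05 of a read, for no more than 46.7% of values in any library, so reads were not recovered and depth is given only in relative terms: the deepest library was estimated at 1.96 times the shallowest, with medians of 1.51 times for insulin and 1.38 times for PBS. Across genes, Pearson r between replicate libraries was 0.982 to 0.991. The summed level of 8 hepatocyte markers was 39124 to 54585 FPKM in insulin and 44678 to 55408 in PBS, against at most 185 FPKM for the 6 Kupffer cell, 70 for the 6 sinusoidal endothelial, 139 for the 6 stellate, 26.1 for the 5 cholangiocyte and 2.70 for the 6 lymphocyte markers. The 5 erythroid markers summed to 219.1 to 756.6 FPKM in insulin and 218.8 to 959.9 in PBS. Over the 5 points 9 tests of a sinusoidal endothelial marker were called, all lower in insulin, and 3 with median-ratio scaling of the libraries. Of the sinusoidal markers 0, 1, 2, 2 and 4 of 6 were lower at points 1 to 5, where 0.00736%, 0.736%, 7.26%, 10.4% and 16.1% of all genes were, and with that scaling 0, 1, 1, 1 and 0. A Kupffer marker was called lower 2 times (1 with the scaling), a cholangiocyte marker 1 time (1) and the erythroid marker Alas2 at point 5 (0), where the median of the erythroid list was -0.65. Tat, a hepatocyte marker, was higher at points 4 and 5, and hepatocyte calls numbered 2, or 4 with the scaling. No stellate marker was called, or 2 higher with the scaling, and no lymphocyte marker reached the level needed for a test. The 5 insulin libraries of replicate 1 stood apart in the sum of 6 ribosomal and nuclear transcripts, at 5079 to 6171 FPKM against 724 to 2355 in all other libraries. Most of that sum was mitochondrial ribosomal RNA, with up to 3721 FPKM of mt-Rnr1 and 2264 of mt-Rnr2 at insulin point 3. Each lane carried libraries of 1 treatment alone, and lane and treatment thus cannot be told apart at any single point. Differences below are insulin minus PBS in log2(FPKM + 1), a scale on which the changes of low transcripts come out too small. Tests are limma fits across all 13589 genes with adjusted p below 0.05 as the threshold. Over all genes tested the differences had medians of -0.06, -0.12, -0.14, -0.14 and -0.17 at points 1 to 5, and median-ratio scaling of the libraries brought these to within 0.02 of 0. That scaling also moved the split of all genes called higher and lower: from 298 and 986 to 693 and 485 at point 3, and from 402 and 2194 to 1196 and 1085 at point 5.

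Txnip was the most abundant of the 4 in 24 of 30 libraries, Arrdc3 being above it in the other 6, and it had the widest swing. At point 1 the insulin libraries held 23.9, 31.7 and 28.3 FPKM and the PBS libraries 35.8, 25.1 and 29.0, so the groups overlapped. At point 2 the insulin libraries held 9.08, 14.1 and 11.3 FPKM against 38.9, 42.4 and 50.1 in PBS. Every insulin library at point 2 lay below every PBS library. The mean was 11.5 ± 2.52 FPKM (SD, n = 3) against 43.8 ± 5.74, a 3.81-fold lower level, and only 13 of the 13589 genes had a more negative difference than the -1.85 ± 0.16 (SE) of Txnip.

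At point 3 the insulin libraries lay nearer the PBS level, with 38.3, 38.5 and 53.9 FPKM against 55.5, 54.6 and 56.1, still all below PBS, and the difference was -0.36 ± 0.16. With median-ratio scaling that difference was -0.19. At point 4 the order was the opposite. Insulin libraries held 195.3, 179.8 and 179.8 FPKM against 62.7, 46.3 and 60.4 in PBS, means of 185.0 ± 8.95 and 56.5 ± 8.90. The difference was 1.71 ± 0.16, with 21 genes more positive. At point 5 the values were 161.2, 175.6 and 151.5 FPKM against 45.3, 49.1 and 38.7, a difference of 1.86 ± 0.16 that 17 genes exceeded. The insulin libraries at points 4 and 5 were thus all above PBS, by 3.28-fold and 3.67-fold in the means. Without insulin replicate 1, whose mitochondrial ribosomal RNA was high, the differences at points 2, 3, 4 and 5 were -1.71, -0.28, 1.67 and 1.86. As background for these descriptions, the 3 insulin libraries lay wholly below PBS for 18.6% of all genes at point 2 and 27.8% at point 3, and wholly above for 8.01% at point 4 and 6.42% at point 5.

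The replicate number names a series of 5 libraries, 1 per point, within a treatment, and most series were sequenced on a single lane. Txnip at point 4 was 21.5, 12.7 and 15.9 times its level at point 2 in insulin series 1, 2 and 3. The corresponding ratios in PBS series 1, 2 and 3 were 1.61, 1.09 and 1.21. Insulin series 2 lay wholly on lane 1, and the libraries of insulin series 1 and 3 at these points were both on lane 2, so the ratios hold within lanes. Between numbered points of the insulin arm the mean log2 level moved by -1.22 from point 1 to 2, by 1.84 from 2 to 3, by 2.08 from 3 to 4 and by -0.19 from 4 to 5, each ± 0.16 (SE). No more than 7 genes had a more positive step from point 2 to 3, and 6 from point 3 to 4.

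In the PBS arm Txnip varied less but did vary. Group means were 29.9 ± 5.41, 43.8 ± 5.74, 55.4 ± 0.757, 56.5 ± 8.90 and 44.4 ± 5.27 FPKM at points 1 to 5 (SD, n = 3). The F test across the 5 PBS points, whose libraries also entered the difference Txnip was chosen for, passed (limma, adjusted p = 0.00459), as it did for 3.27% of all genes. No single step between neighbouring PBS points passed; the largest was 0.54 ± 0.16 from point 1 to 2 (adjusted p = 0.169). The F call ended without PBS series 2 (adjusted p = 0.0732) or PBS series 3 (adjusted p = 0.104). In the order of the 10 group means, insulin points 4 and 5 stood first, each apart from the next group in all libraries. PBS points 4 and 3 followed with overlapping libraries, PBS point 5, PBS point 2 and insulin point 3 overlapped in turn, then PBS point 1 and insulin point 1 overlapped, and insulin point 2 was last and apart from all others.

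**Figure D2:**
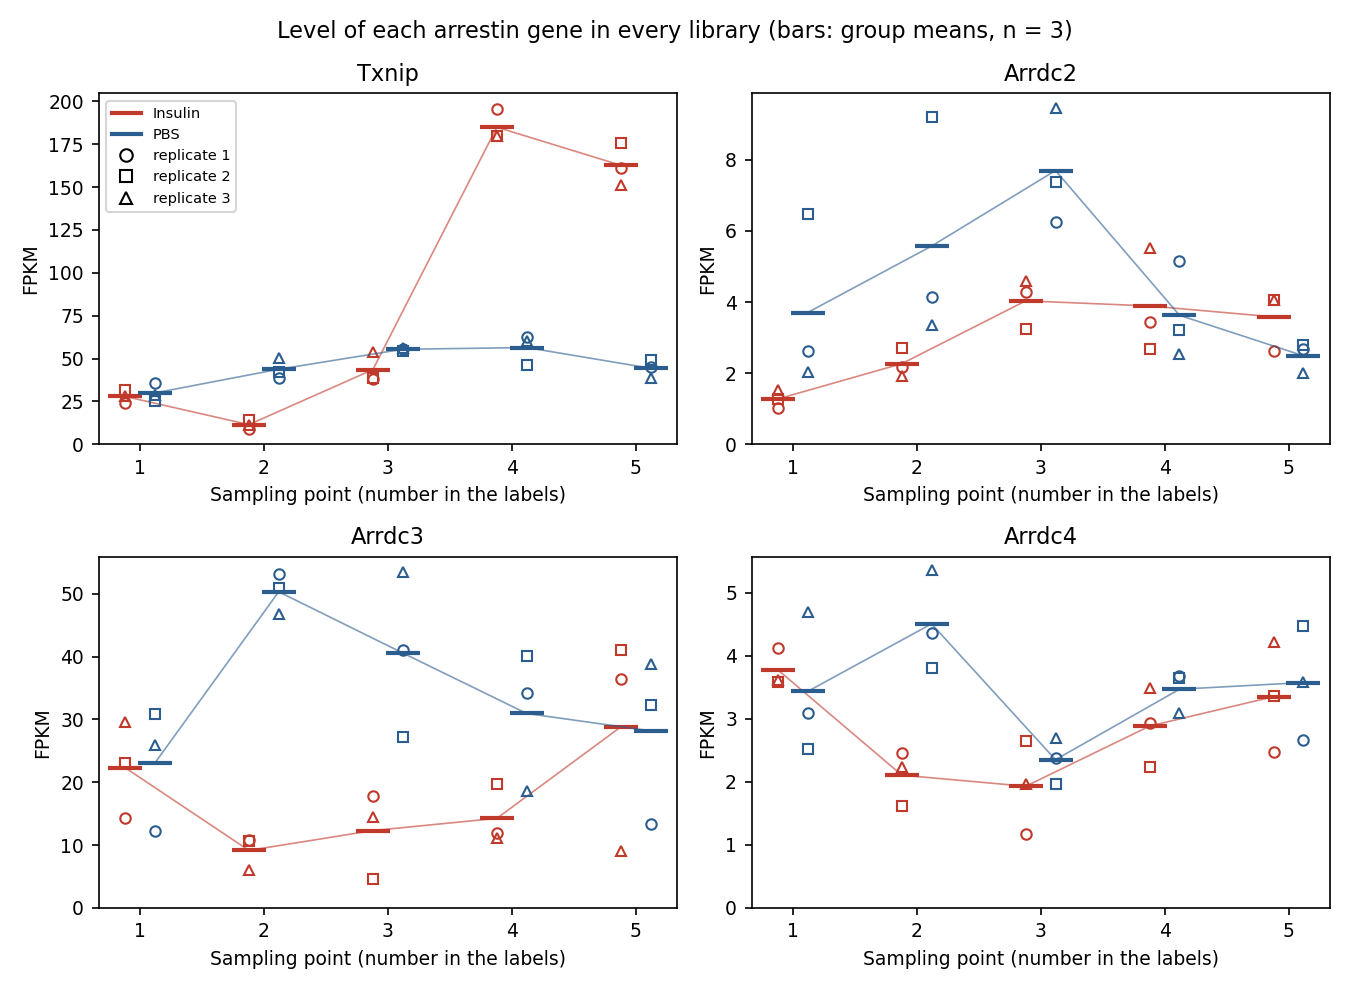
FPKM (y axis, from 0) of Txnip, Arrdc2, Arrdc3 and Arrdc4 in every library by sampling point (x axis). Symbols are libraries by replicate number, bars are group means (n = 3) and lines join the means; Txnip in insulin runs from 11.5 FPKM at point 2 to 185.0 at point 4, while Arrdc3 in insulin lies at 9.14 FPKM at point 2 and 14.2 at point 4, and Arrdc2 and Arrdc4 stay below 10 FPKM in all libraries.

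Txnip shares its locus with another transcript. The gene lies on chromosome 3, 96557957 to 96561883 on the plus strand (GENCODE M21, GRCm38), inside the span of Gm15441, an annotated antisense RNA on the minus strand at 96555765 to 96566801. The library kit keeps strand, but whether the quantification used it is not given in the sources used here, and without strand reads of the pair cannot be told apart. At point 2 Gm15441 stood at 9.62 ± 1.52 FPKM after insulin and 14.7 ± 8.22 after PBS, and at point 4 at 12.0 ± 9.97 and 17.5 ± 13.2. Its insulin and PBS libraries overlapped at both points. Over points 1 to 5 the PBS means of Gm15441 were 5.03, 14.7, 4.84, 17.5 and 3.72 FPKM, while its insulin means lay between 9.03 and 12.0 FPKM. The highest of its insulin libraries at point 4 held 23.4 FPKM, where the lowest of Txnip held 179.8. At point 2 in insulin both transcripts were of like level, with Txnip at 1.01 to 1.47 times Gm15441 in the 3 libraries. Gm15441 passed at none of the 5 points, with a smallest adjusted p of 0.132 (limma) at point 5, where its difference was 1.29 ± 0.60.

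**Figure D3:**
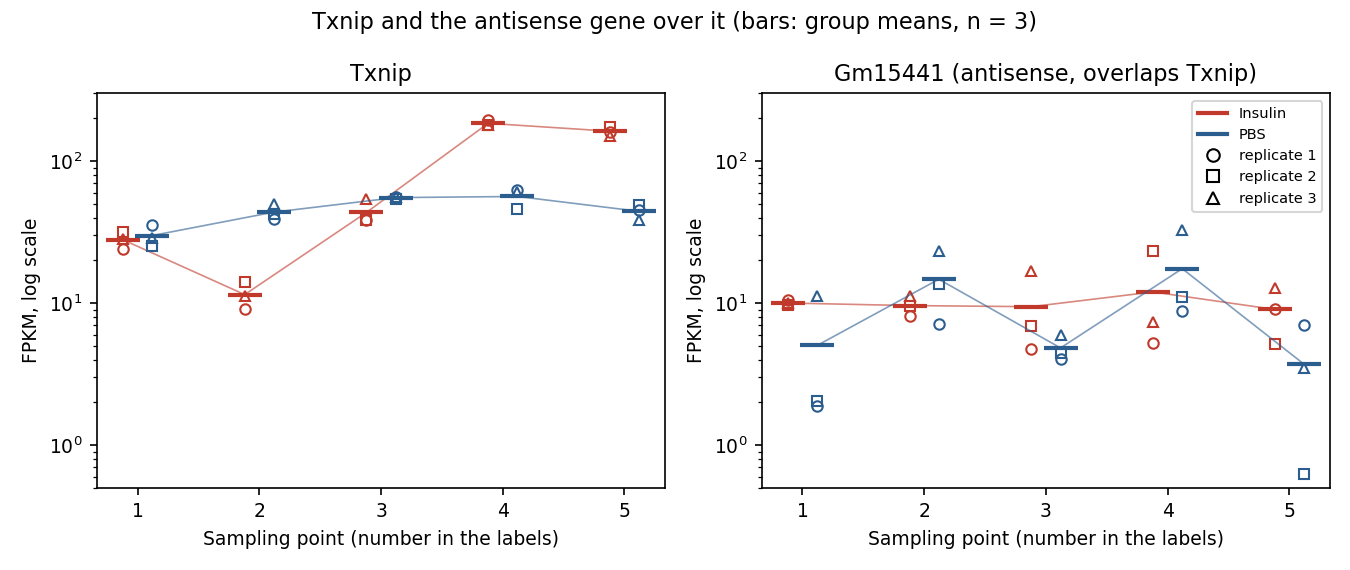
FPKM on a log axis (y axis) of Txnip (left) and of Gm15441, the antisense gene that spans it (right), in every library by sampling point (x axis); symbols are replicates, bars group means (n = 3). The insulin means of Txnip lie between 11.5 and 185.0 FPKM, while the insulin means of Gm15441 lie between 9.03 and 12.0 FPKM. PBS means run from 29.9 to 56.5 FPKM for Txnip and from 3.72 to 17.5 FPKM for Gm15441.

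Arrdc3 (chromosome 13, 80883384 to 80896042) was the second most abundant of the set and was lower in insulin at points 2 and 3. At point 2 the insulin libraries held 10.8, 10.6 and 6.09 FPKM and the PBS libraries 53.2, 51.0 and 46.8. All insulin libraries lay well below all PBS libraries, at means of 9.14 ± 2.65 and 50.3 ± 3.24 FPKM. The difference was -2.37 ± 0.50 (SE, n = 3 per group, limma adjusted p = 0.0115), exceeded downwards by 5 genes. At point 3 the libraries held 17.8, 4.62 and 14.5 FPKM against 41.1, 27.3 and 53.4. The groups were again apart, and the difference of Arrdc3 was -1.77 ± 0.50 (adjusted p = 0.0286).

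Of the 3 relatives, 2 were called at point 2, where 1.35% of all genes were called, and 1 at point 3, where 9.45% were. Leaving out 1 library moved the count of all genes called at point 2 from 184 to between 84 (without the second insulin replicate) and 456 (without PBS replicate 1), with 85 to 170 for the other left-out libraries. At point 3 it moved from 1284 to between 583 and 845, whichever library was left out. At point 4, where 1799 genes were called, dropping the second insulin library left 635 and dropping the first left 716. Dropping the third PBS library left 734, the first 1062 and the second 1521, while dropping the third insulin library raised the count to 2396. At point 5 the count moved from 2596 to 1121 without insulin replicate 1 and 1345 without PBS replicate 3. The other left-out libraries gave 1818 to 2545 there. At point 1, leaving out PBS replicate 1 raised the count from 1 to 62, and other libraries gave 0 to 3. None of the 3 relatives was called at point 1, 4 or 5, where 0.00736%, 13.2% and 19.1% of all genes were, although 1 of them at point 1 (Arrdc2) and 1 at point 4 (Arrdc3) had an unadjusted p under 0.05 in limma. At point 4 the Arrdc3 means were 14.2 ± 4.69 FPKM in insulin and 30.9 ± 11.1 in PBS, with overlapping libraries and a difference of -1.04 (95% interval -2.07 to -0.01, adjusted p = 0.16). At points 1 and 5 the means were near each other, at 22.3 and 23.0 FPKM and at 28.8 and 28.2 FPKM, and the sign of the small difference flipped with median-ratio scaling. The spread at point 5 was wide: insulin libraries held 36.4, 41.0 and 9.04 FPKM. At point 2 the call of Arrdc3 was lost when insulin replicate 3 (adjusted p = 0.0596) or the second PBS replicate (adjusted p = 0.0559) was left out. At point 3 it was lost when the second insulin replicate (adjusted p = 0.152), PBS replicate 1 (adjusted p = 0.0743) or the third PBS replicate (adjusted p = 0.112) was left out. Without insulin replicate 1 both calls held, at -2.50 (adjusted p = 0.0289) and -2.10 (adjusted p = 0.0248). Among the 6 sinusoidal endothelial markers 1 was lower at point 2 and 2 at point 3 (1 with median-ratio scaling), and none was higher. Of all genes 0.736% and 7.26% were lower there. Where Arrdc3 was not called, 2 of these markers were lower at point 4 and 4 at point 5 (1 and 0 with that scaling). Of all genes 10.4% and 16.1% were lower at those points. The summed level of the markers was 44.7 to 53.4 FPKM in insulin and 50.8 to 66.0 in PBS at point 2. At point 3 it was 44.1 to 50.7 and 54.8 to 70.0. The part of these markers in the Arrdc3 result was not tested. In whole liver, fewer cells of a type and less RNA per cell cannot be told apart. Arrdc3 overlaps 1700023H06Rik on the other strand, a transcript whose mean over the 30 libraries was 0.128 FPKM.

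Arrdc4 (chromosome 7, 68736995 to 68749241), the relative of Txnip that is also known as carbohydrate-responsive, was a low transcript at 1.17 to 5.36 FPKM over the libraries. It was lower in insulin at point 2. The insulin libraries held 2.46, 1.62 and 2.24 FPKM and the PBS libraries 4.36, 3.81 and 5.36, with no overlap. The difference was -0.83 ± 0.20 (SE, n = 3 per group, limma adjusted p = 0.0316), and with median-ratio scaling -0.71 (adjusted p = 0.0605), which ended the call. The call also ended in 5 of the 6 fits that left out 1 library, at adjusted p of 0.0525, 0.185 and 0.0609 without insulin replicates 1, 2 and 3 and 0.0577 and 0.199 without PBS replicates 2 and 3.

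At points 4 and 5, where Txnip stood above PBS, Arrdc4 did not. At point 4 its means were 2.89 ± 0.630 FPKM with insulin and 3.47 ± 0.329 with PBS, and the difference was -0.21 (95% interval -0.62 to 0.20, adjusted p = 0.499). At point 5 the means were 3.35 ± 0.867 and 3.58 ± 0.904, a difference of -0.07 (95% interval -0.48 to 0.34, adjusted p = 0.831) whose sign flipped with median-ratio scaling. Without scaling, the interval at point 4 ends below a log2 difference of 0.2, whereas the Txnip estimate was 1.71. With median-ratio scaling the Arrdc4 difference at that point was -0.08. Changes of a transcript as low as Arrdc4 come out too small on this scale. Within libraries the level of Txnip was 3.69 to 8.70 times that of Arrdc4 in insulin at point 2 and 51.4 to 80.3 times at point 4, against 8.92 to 11.1 and 12.7 to 19.5 times in PBS. These ratios carry the Txnip values and are a description only. In the insulin arm Arrdc4 varied among points (F test, adjusted p = 0.0395), as did 13.3% of all genes, with means of 3.78 FPKM at point 1 and 1.93 at point 3. Leaving out any of the 3 insulin series ended this call (adjusted p = 0.155, 0.0806 and 0.237 without series 1, 2 and 3), as did leaving out PBS series 1 (adjusted p = 0.0756).

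Arrdc2 (chromosome 8, 70835129 to 70839720) was as low as Arrdc4, being the higher of the pair in 16 of 30 libraries. Its insulin libraries lay below all PBS libraries at points 1, 2 and 3. At point 1 they held 1.02, 1.27 and 1.54 FPKM against 2.61, 6.48 and 2.03, a difference of -0.94 ± 0.30 (limma adjusted p = 0.541). At point 2 they held 2.17, 2.71 and 1.92 FPKM against 4.15, 9.21 and 3.37, a difference of -0.91 ± 0.30 (adjusted p = 0.122). At point 3 they held 4.28, 3.24 and 4.59 FPKM against 6.27, 7.39 and 9.45, a difference of -0.78 ± 0.30 (adjusted p = 0.0929). No point passed the test for Arrdc2, although separation of this direction was seen in 6.44%, 18.6% and 27.8% of all genes at points 1 to 3.

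At points 4 and 5 the Arrdc2 groups overlapped, with means of 3.89 and 3.63 FPKM and of 3.58 and 2.49 FPKM in insulin and PBS. In the fit of only the 6 libraries of point 3, Arrdc2 passed (adjusted p = 0.0442). Across the insulin points Arrdc2 varied from a mean of 1.28 ± 0.261 FPKM at point 1 to 4.04 ± 0.709 at point 3 (F test, adjusted p = 0.0321), and leaving out any insulin series ended this call (adjusted p = 0.244, 0.132 and 0.271 without series 1, 2 and 3). In PBS the highest mean was 7.70 ± 1.61 FPKM at point 3 and the lowest 2.49 ± 0.428 at point 5 (adjusted p = 0.0574).

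Whether the difference between insulin and PBS depended on the point was also tested. The F test of this dependence passed for 1.77% of all genes but for none of the 3 relatives, at adjusted p of 0.196 for Arrdc2, 0.195 for Arrdc3 and 0.34 for Arrdc4. A change of the insulin effect over the points was therefore not shown for them, although the differences of Arrdc3 ran from -2.37 at point 2 to -0.00 at point 1. Of 28 steps between neighbouring points, those of the 3 relatives in either arm and of Txnip in PBS, 0 passed in limma and 11 had an unadjusted p under 0.05. The smallest adjusted p was 0.0904, for Arrdc4 from insulin point 1 to 2. Over all genes, 3.22%, 0.817%, 0.272% and 0.618% were called at the successive insulin steps and 0.552%, 0.11%, 0.0147% and 0% at the PBS steps.

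**Figure D4:**
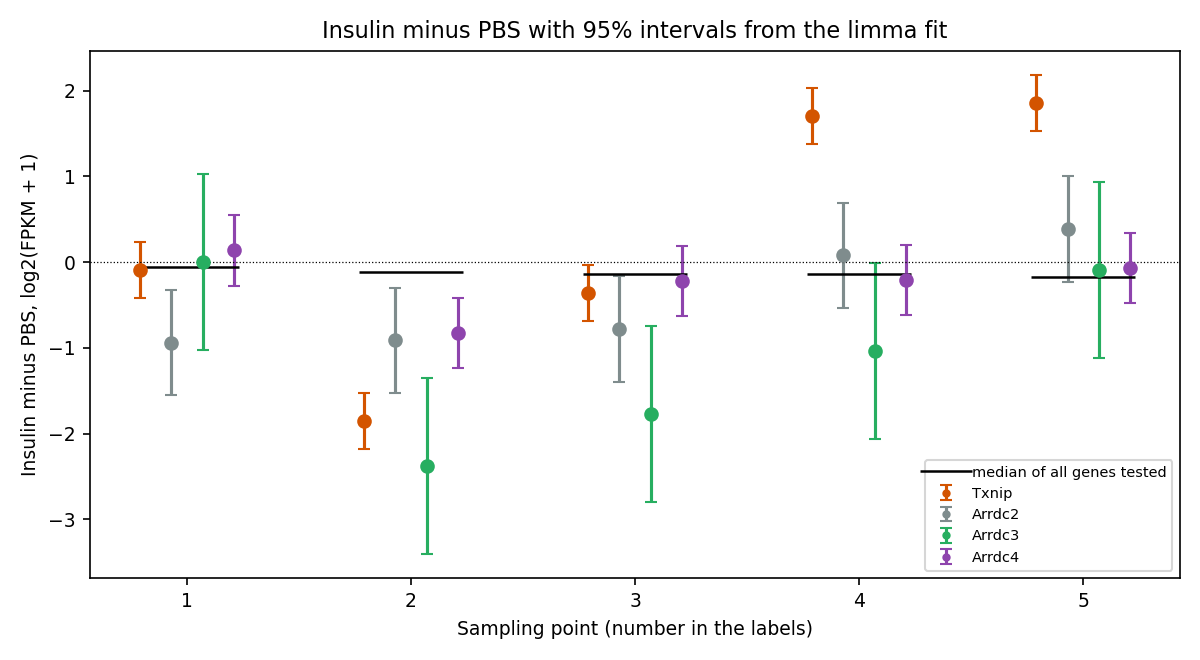
Insulin minus PBS in log2(FPKM + 1) (y axis) for the 4 genes at each sampling point (x axis), with 95% intervals from the limma fit, and the median of all 13589 genes tested (black dashes). The intervals of Txnip are a description and not a test, because Txnip was in effect selected on this difference. At point 2 the differences are -2.37 for Arrdc3, -0.91 for Arrdc2 (not called), -0.83 for Arrdc4 and -1.85 for Txnip. At points 4 and 5 Txnip lies above the median of all genes, at 1.71 and 1.86.

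Other arrestins gave no call. Of the 3 tested, Arrdc1 had group means of 0.557 to 1.63 FPKM, and the beta-arrestins Arrb1 and Arrb2, which uncouple and internalise G protein-coupled receptors, 1.49 to 3.05 and 3.29 to 6.17 FPKM. At points 2, 3 and 4 the number at an unadjusted p under 0.05 was 1, 2 and 1, and no other point had one. The median of the 3 lay between -0.58 and -0.25 over the points, against -0.17 to -0.06 for all genes. The Vps26 genes, whose proteins share the arrestin fold and help sort cargo from endosomes, gave 1 call among 3 genes and 5 points. That call was Vps26b at -0.43 ± 0.12 (adjusted p = 0.0129) at point 5, where 19.1% of all genes were called. With median-ratio scaling no Vps26 gene was lower at that point and 1 was higher.

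Genes of the thioredoxin system, the partner side of Txnip, gave 1 higher and 1 lower call over the 5 points, or 3 higher and 0 lower with median-ratio scaling. Txn1, the cytosolic thioredoxin, had group means of 92.3 to 116.6 FPKM and passed at no point. Of 6 tested, Txnl1, a thioredoxin-like protein, was higher in insulin by 0.49 ± 0.15 at point 3 (adjusted p = 0.036). Txnrd2, the mitochondrial thioredoxin reductase, was lower in insulin by 0.64 ± 0.19 at point 5 (adjusted p = 0.0223, and 0.0603 with median-ratio scaling). The list's median was -0.15 to 0.07 over the points. Among 7 NEDD4 family ligases, Itch was higher in insulin by 0.36 ± 0.10 and Smurf1 lower by 0.42 ± 0.15 at point 5 (adjusted p = 0.0121 and 0.048). Of all genes 2.19% were called higher at point 3, and 2.96% higher and 16.1% lower at point 5. Smurf1 lost its call with median-ratio scaling (adjusted p = 0.221), and no ligase was called at another point. The median of these ligases was -0.09 to 0.09.

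The factors that read glucose were measured as well. Mlxipl, the ChREBP gene, was lower in insulin than in PBS by 0.69 ± 0.19 at point 3 and by 0.63 ± 0.19 at point 4 (limma adjusted p = 0.0255 and 0.0317). Both calls ended with median-ratio scaling (adjusted p = 0.0652 and 0.0815). Its group means were 15.0 to 27.6 FPKM. Mlxip and Mlx, with group means of 0.95 to 1.89 and 10.9 to 14.3 FPKM, passed at no point. Of the 9 genes tested from the Mlx and Max network, 2 were lower in insulin at point 3 (the other being the repressor Mxd4, by 0.56). At point 4, 1 was higher (Mga, by 0.60 ± 0.17) and 1 lower, and at point 5, 1 was lower (Mxd4, by 0.48). With median-ratio scaling the counts at points 4 and 5 were 2 higher and 0 lower each, and 1 lower at point 3. The median of the network was -0.15 to 0.05 over the points. Of all genes 9.45% were called at point 3 and 19.1% at point 5. At point 4, where 13.2% of all genes were called, the call of Mlxipl as lower held only without scaling, and Txnip stood above PBS. A link between the levels of these genes was not tested.

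Carbohydrate-responsive genes, a list of which 11 were tested, were called in both directions. The list was chosen with earlier results of these data known, so its counts are not independent of the data. In insulin against PBS, 1 was higher and 2 were lower at point 2, and 0 were higher and 1 lower at point 3. At point 4, 1 was higher and 2 were lower, and at point 5, 3 were higher and 2 lower. At point 1 none passed in limma and none had an unadjusted p under 0.05. Of all genes 1.35%, 9.45%, 13.2% and 19.1% were called at points 2 to 5. The median of the list was -0.21 at point 2 and 0.01 at point 5, against -0.12 and -0.17 for all genes tested. Rgs16, a regulator of G protein signalling that ChREBP is known to induce, had differences of -4.35 ± 0.48, -2.99 ± 0.48 and 1.70 ± 0.48 at points 2, 3 and 5. Klf10, a zinc finger factor, had -1.94 ± 0.24 at point 2 and 1.17 ± 0.24 at point 5 (adjusted p = 0.00259 at point 5). Both changed sign between points 2 and 5, as the Txnip values do. These comparisons rest on the same libraries, so the likeness is not separate evidence. Pklr, the liver pyruvate kinase, was lower in insulin by 0.73 ± 0.24 at point 4 (adjusted p = 0.0468, and 0.0821 with median-ratio scaling). Acacb, an acetyl-CoA carboxylase, was lower in insulin by 0.80 ± 0.23 there. G6pc, which encodes the enzyme that frees glucose for export, was higher in insulin by 1.19, 1.36 and 0.97, each ± 0.30, at points 2, 4 and 5. With median-ratio scaling the counts were 1 higher and 1 lower at point 4 and 3 higher and 0 lower at point 5. The 2 genes called lower at point 5 without that scaling are not named, because at most 3 called genes per comparison were. Pklr also lay lower at point 5, at means of 9.06 ± 0.795 FPKM in insulin and 16.6 ± 3.09 in PBS, with no overlap of libraries.

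**Figure D5:**
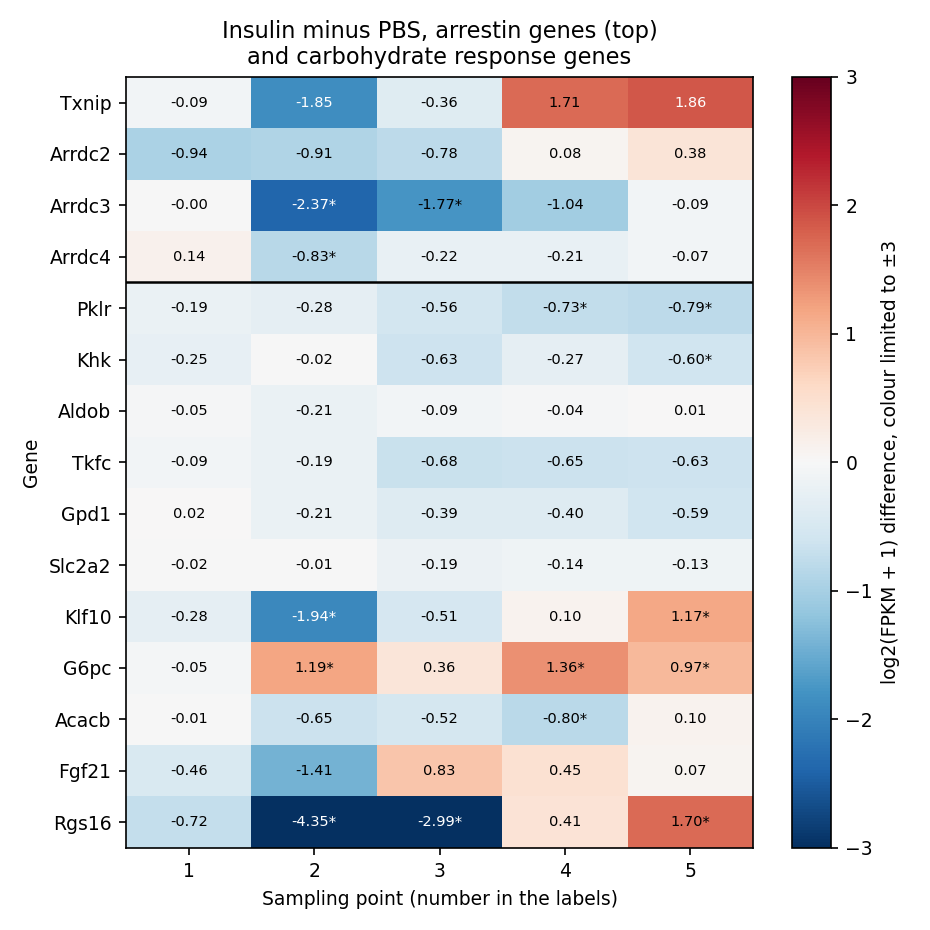
Insulin minus PBS in log2(FPKM + 1) for the 4 arrestin genes (above the line) and 11 carbohydrate-responsive genes (rows) at each sampling point (columns); colour is limited to ±3 and a star marks adjusted p below 0.05 in limma, with Txnip left untested. Txnip, Klf10 and Rgs16 are negative at point 2 and positive at point 5, while G6pc is positive at both. The genes were chosen with earlier results of these data known, so the stars are not independent of that choice.

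Of 6 genes tested among reported partners and cargo, 5 calls were made over the 5 points, all higher, or 7 with median-ratio scaling. They fell at points 3, 4 and 5, where 2.19%, 2.82% and 2.96% of all genes were called higher, and the list's median was -0.04 to 0.30. Ddit4, a stress-induced inhibitor of mTORC1 that Txnip is reported to bind, was higher in insulin by 2.29 ± 0.37 and 1.16 ± 0.37 at points 4 and 5. Prkaa2, a catalytic subunit of AMP-activated kinase, was higher in insulin by 0.33 to 0.39 at points 3, 4 and 5. Insr, the insulin receptor gene, had group means of 24.5 to 28.8 FPKM and passed at no point.

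The genes most like each member over the 30 libraries were found by Pearson r of log2(FPKM + 1) among 6707 genes at a mean of 5 FPKM or more. For Txnip they were Pdp2, a pyruvate dehydrogenase phosphatase, at r = 0.87, the RNA-binding protein gene Zfp36l2 at 0.84, Pdk4, a pyruvate dehydrogenase kinase, at 0.83, the amino acid transporter gene Slc7a2 at 0.82 and Baiap2l1 at 0.82. Within the 15 insulin libraries Pdk4 had r = 0.97 with Txnip and within the 15 PBS libraries -0.12, whereas Pdp2 had 0.90 and 0.83. For Arrdc2 the 3 most alike were Klhl21, Nacc1 and Hnf4a (r = 0.77, 0.76 and 0.73), for Arrdc3 Grb7, H6pd and Repin1 (0.75, 0.73 and 0.73) and for Arrdc4 Ctnnd1, Cyb5d1 and Elmod3 (0.73, 0.72 and 0.70). No member appeared in the list of another. Arrdc2 and Arrdc4, at means of 3.82 and 3.14 FPKM, lay below the level required and could not have been listed. These values describe shared libraries, depth and lanes as well as the genes, and no test was made on them.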

How the data were processed

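Poly(A) RNA of 30 liver libraries was sequenced. The submitters' processing notes name HISAT2 2.1.0, SAMtools 1.9 and StringTie 2.0.3 and the build GRCm38 (mm10). Annotation and strand setting: not given in the sources used here. FPKM values per gene were deposited by the authors, so no count test was run. Cells without a value (32.2% of the table, none in a member's row) were taken as 0 FPKM.

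Sample titles carry a pair of numbers, taken as replicate (3 levels) and point (5 levels). The labels do not name the animals, so p-values measure the spread between these samples. Genes with at least 1 FPKM in 3 or more libraries (13589, all 4 members among them) were fitted as log2(FPKM + 1) by limma 3.58.1 (R 4.3.3) with 10 group means and a trended prior, leaving 20 residual degrees of freedom. Two-sided p-values were adjusted over all genes by Benjamini-Hochberg. The members and gene lists were chosen with earlier results of these data known. Named genes were the members, the genes most alike by r (5 for Txnip, 3 for each other member) and up to 3 called genes of a list per comparison; genes named without a call lie outside that rule. Positions came from GENCODE M21 by gene ID (29066 of 29117 matched). A gene of the partner list is not reported here. Scripts were tested on simulated data. Alternatives were another pseudocount, filter or scaling, block and random terms, and fits without single libraries or series.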

Additional observations from a re-analysis of the deposited data

Results flagged for a closer look

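Txnip is listed here because its treatment groups stood apart in opposite directions at different points. The 3 insulin libraries lay below the 3 PBS libraries at points 2 and 3, with differences of -1.85 and -0.36 in log2(FPKM + 1). They lay above at points 4 and 5, with differences of 1.71 and 1.86. Txnip was in effect selected on this difference, so the listing is a description and not separate evidence. Separation below PBS was seen in 18.6% and 27.8% of all genes at points 2 and 3. Above PBS it was seen in 8.01% and 6.42% at points 4 and 5. With median-ratio scaling the Txnip difference at point 3 was -0.19. The change between points was not tested for Txnip.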

How the results depend on the processing

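Over all alternatives run, 465 recomputed values kept their side of the threshold or, for untested Txnip values, stayed within the replicate spread. Of the rest, 27 lost and 5 gained a call, and 1 Txnip value moved by more than that spread. No called difference reversed. Differences without a call could change sign and still count among the 465, as for Arrdc3 at point 5, which ran from -0.54 to 0.57. Without the filter on low values, which raises the number of genes tested, Arrdc3 at point 3 stayed at -1.77 (limma adjusted p = 0.0748) and Arrdc4 at point 2 at -0.83 (adjusted p = 0.0753), and the F tests of the insulin arm gave adjusted p of 0.0888 for Arrdc2 and 0.0879 for Arrdc4. With median-ratio scaling Txnip at point 5 was 2.07, Arrdc4 at point 2 was -0.71 (adjusted p = 0.0605) and the PBS arm F test of Arrdc2 gained a call (adjusted p = 0.0363). Quantile normalization gave -0.71 (adjusted p = 0.0649) and 0.0341 for the same tests of Arrdc4 and Arrdc2, and series as a fixed block gave 0.0337 for Arrdc2. Fits of only the 6 libraries of a point, which have fewer samples, gave -0.83 (adjusted p = 0.105) for Arrdc4 at point 2, -1.77 (adjusted p = 0.0625) for Arrdc3 at point 3 and -0.78 (adjusted p = 0.0442, a gained call) for Arrdc2 at point 3. The cause of the other changes was not tested.

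Leaving out 1 library at a time gave -2.50 to -2.14 for Arrdc3 at point 2, -2.10 to -1.23 for Arrdc3 at point 3 and -0.92 to -0.71 for Arrdc4 at point 2. Leaving out a series of 5 libraries gave insulin arm adjusted p of 0.244, 0.132 and 0.271 for Arrdc2 and 0.155, 0.0806 and 0.237 for Arrdc4 (insulin series 1, 2 and 3), and 0.0756 for Arrdc4 without PBS series 1. PBS arm adjusted p were 0.0732 and 0.104 for Txnip without PBS series 2 and 3, and 0.0411 for Arrdc2 without PBS series 2. With the replicate number as a block, Arrdc3 at point 2 had adjusted p of 0.0131 and Arrdc4 0.0189, and each of the member results refitted kept its side of the threshold. Of 15 pairs of same-numbered samples, 1 had a correlation of deviations above 0.1, and 11 of 30 samples correlated best with their own number, so the numbers were not taken to pair samples. Over all genes, point 2 had 84 higher and 100 lower calls, against 119 and 331 with that block. The low levels of Arrdc2 and Arrdc4 limit what the depth can show.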
